A study of Mus musculus with 6 samples.

Results

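The mitochondrial genome is a small circular DNA that encodes mRNAs for core subunits of the respiratory chain, the rRNAs of the mitochondrial ribosome, and tRNAs. Its transcripts were found by their symbols, which begin with mt- in the deposited gene table. They made up 22 of the 25302 rows: 8 mRNAs, 2 rRNAs and 12 tRNAs. No measured value entered this choice. The reference annotation (GENCODE M21, build GRCm38) lists 37 mitochondrial genes, and all 22 rows matched it by Ensembl identifier. The other 15 annotated genes (the mRNAs mt-Co2, mt-Atp8, mt-Atp6, mt-Co3 and mt-Nd4l, and 10 tRNAs) were not analysed here.

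RNA was sequenced in bulk from biliary epithelial cells of the mouse liver, the cells that line the bile ducts, in 3 samples labelled Control and 3 labelled Sox9cKO. Control samples had the genotype Sox9fl/fl, and Sox9cKO samples the genotype Sox9fl/fl:AlbCre+/-, so both floxed copies of Sox9, a transcription factor gene, were shared by both groups. AlbCre is a Cre transgene under the albumin promoter, which is active in hepatoblasts, from which both hepatocytes and biliary cells arise, and in hepatocytes. The labels give no age, and do not say whether each sample came from its own animal. If they did not, the p-values below measure only the spread between these samples.

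Both strands of the circle are transcribed as long precursors from which the tRNAs, lying between the other genes like punctuation marks, are cut out to release mRNAs and rRNAs. The RNA polymerase POLRMT transcribes the precursors with TFAM and TFB2M, and RNA-binding proteins such as LRPPRC later set how long the mRNAs last. By the usual naming most genes are read from the heavy-strand promoters, while mt-Nd6 and a few tRNAs come from the light-strand promoter. Here mt-Nd6 and 5 of the 12 tRNAs were of that kind.

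Levels are given as normalized read counts, in which the reads of a gene are divided by 1 size factor per sample. The samples held between 11883496 and 16191990 reads in genes. Sox9, the floxed gene, had normalized read counts of 6211, 6043 and 6293 in Control replicates 1 to 3 and of 3363, 3165 and 3340 in Sox9cKO replicates 1 to 3. In this order, which is kept for all values below, every library followed its label. The defining biliary markers were present, with reads in every sample for 10 of 10 genes. Their summed level was 73318 to 113149 in Control and 61187 to 93334 in Sox9cKO. Markers of other cells were present too. The sum over 12 hepatocyte genes was 19112 to 30305 in Control and 23418 to 37643 in Sox9cKO. The sum over 8 endothelial genes was 1448 to 31678 in Control and 5237 to 32371 in Sox9cKO. Over 8 leukocyte and erythroid genes, the sum was 1044 to 1119 in Control and 1513 to 1826 in Sox9cKO, without overlap, but most of it was Csf1r, a receptor of macrophages. Csf1r was called higher in Sox9cKO (log2 fold change 0.92; limma adjusted p 0.0142), while Ptprc, the pan-leukocyte marker CD45, stood at -1.95 (adjusted p 0.266). The median of the 7 tested genes of that list was -0.48. Over 6 mesenchymal genes the summed level was 301 to 702 in Control and 409 to 1150 in Sox9cKO. Compared within a replicate number, the Sox9cKO sample had the higher endothelial sum and the higher hepatocyte sum, and the lower biliary sum, in all 3 pairs. In pairs 1 to 3, the endothelial sums were 10185 and 24884, 31678 and 32371, and 1448 and 5237 (Control, then Sox9cKO). Of the 8 endothelial genes 0 were called with limma (lowest adjusted p 0.208), and 1 with the replicate number as a block. Their median log2 fold change was 1.04. The hepatocyte sums were 30305 and 35514, 19112 and 23418, and 20829 and 37643. Most of each was Alb, which was not called (log2 fold change 0.47; limma adjusted p 0.380). Of the 12 hepatocyte genes 2 were called, both higher in Sox9cKO, Serpina1a (4.21; adjusted p 0.00368) and Tat (2.26; adjusted p 0.00726). Ttr stood at -0.44 (adjusted p 0.570), and the median of the list was 0.35. The biliary sums were 113149 and 93334, 73318 and 61187, and 90209 and 69802. The largest part of each was Spp1, which was not called (log2 fold change -0.66; limma adjusted p 0.230). Of the 10 biliary genes 1 was called higher in Sox9cKO, Krt7 (0.997; adjusted p 0.0408), and 1 lower, Sox9 itself (-0.91; adjusted p 0.00501). Krt19 stood at 0.58 (adjusted p 0.292), and the median of the list was -0.11. The lower biliary sum thus did not hold for every gene of the list. In every list with values here, all genes in the table had reads in every sample, so none of these markers was at 0. The part of these other cells in the mitochondrial values was not tested. In bulk RNA, fewer cells of a type and less RNA per cell cannot be told apart.

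Of the 22 mitochondrial transcripts, 17 reached a mean of 10 normalized reads and were tested, namely all 8 mRNAs, both rRNAs and 7 tRNAs. No transcript was called between Control and Sox9cKO with limma at a Benjamini-Hochberg adjusted p under 0.05, where 2.97% of all 17153 tested genes were called, 2.03% higher and 0.939% lower in Sox9cKO. An unadjusted p under 0.05 was also reached by 0 of the 17, against 17.8% of all tested genes. With edgeR, with DESeq2 and with the replicate number as a block in limma, 0 were called and 0 reached an unadjusted p under 0.05. Over all genes these fits called 2.86%, 7.08% and 8.05%. The median log2 fold change was 0.064 for the mRNAs, -0.010 for the rRNAs and 0.14 for the tRNAs, beside 0.036 over all tested genes.

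**Figure D1:**
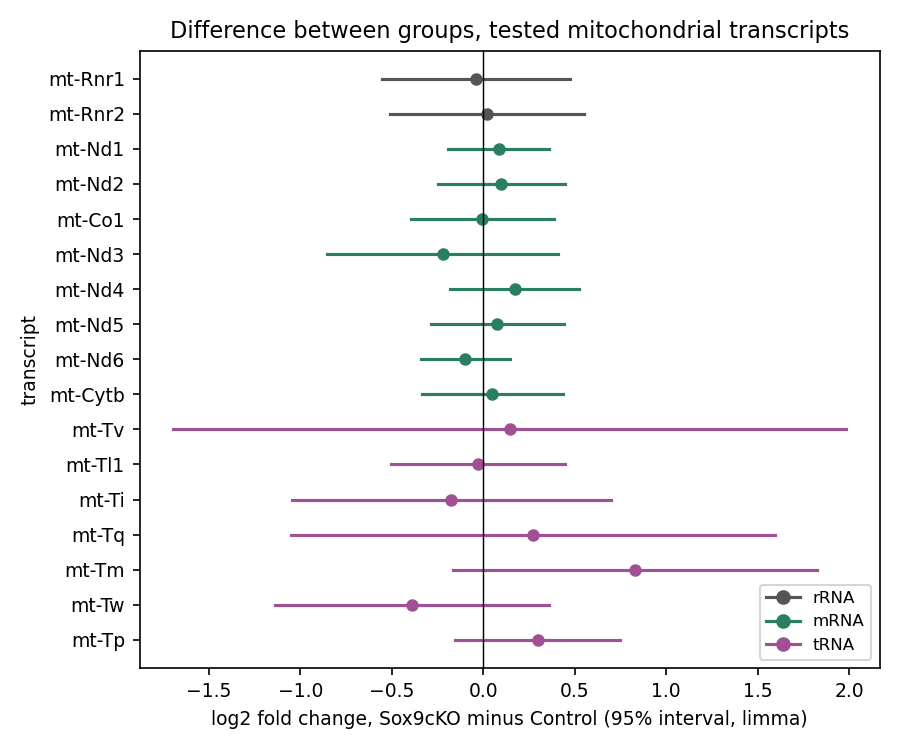
Log2 fold change (Sox9cKO minus Control, x axis) of each tested mitochondrial transcript, with its 95% interval from limma, coloured by class. All 17 intervals include 0, and those of mRNAs other than mt-Nd3 are narrower than those of all 7 tRNAs.

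These counts do not show that the transcripts were equal in both groups, and the intervals state what the data allow. The median width of the 95% interval on the log2 scale was 0.716 for the mRNAs, 1.04 for the rRNAs and 1.74 for the tRNAs, beside 1.15 for all tested genes. By these medians the mRNAs were bounded more tightly than a typical gene, and the tRNAs less tightly. Exceptions were mt-Nd3 with a width of 1.26, and mt-Tp with 0.90 and mt-Tl1 with 0.95.

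The mRNAs are taken in the order of the complexes they serve. Complex I, the NADH dehydrogenase, is served by the mt-Nd genes, which encode its proton-pumping membrane arm. mt-Nd1 (ENSMUSG00000064341, chrM:2751-3707, GRCm38, heavy-strand transcript, as are the other mRNAs except mt-Nd6) had normalized read counts of 10648, 11648 and 11663 in Control and 12912, 10762 and 12425 in Sox9cKO. The lowest Sox9cKO value lay inside the Control range, so the groups overlapped, as they did for each of the 8 mRNAs. The log2 fold change was 0.085 with a 95% interval of -0.19 to 0.36 (limma, adjusted p 0.763).

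For mt-Nd2 (ENSMUSG00000064345, chrM:3914-4951), the normalized read counts were 4556, 5134 and 5333 in Control and 5972, 4410 and 5826 in Sox9cKO. The lowest and the highest sample both belonged to Sox9cKO. Its log2 fold change was 0.099 with an interval of -0.25 to 0.45 (limma, adjusted p 0.782). mt-Nd4 (ENSMUSG00000064363, chrM:10167-11544) stood at 6083, 6766 and 6188 in Control and at 8088, 5792 and 7777 in Sox9cKO. Replicates 1 and 3 of Sox9cKO were above every Control sample, and replicate 2 was below every one. Among the mRNAs it had the highest log2 fold change, 0.17 with an interval of -0.18 to 0.53 (limma, adjusted p 0.615). mt-Nd5 (ENSMUSG00000064367, chrM:11742-13565) had 14091, 15593 and 16045 normalized reads in Control and 18722, 13182 and 16767 in Sox9cKO, the same order of samples within Sox9cKO. Its log2 fold change was 0.077 with an interval of -0.29 to 0.44 (limma, adjusted p 0.845).

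mt-Nd6 (ENSMUSG00000064368, chrM:13552-14070) is the one mRNA of the light-strand promoter. Its normalized read counts were 6026, 6162 and 5446 in Control and 5727, 5347 and 5391 in Sox9cKO. All 6 samples were close, with a highest value 1.15-fold above the lowest. In the fit the log2 fold change was -0.098 with an interval of -0.34 to 0.15, that is, a ratio of Sox9cKO to Control between 0.79 and 1.11 (limma, adjusted p 0.686). Read against the 7 heavy-strand mRNAs, mt-Nd6 amounted to 6.90%, 6.64% and 6.25% of their reads in Control and 5.41%, 7.04% and 5.54% in Sox9cKO. The Sox9cKO values lay on both sides of the Control values.

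mt-Nd3 (ENSMUSG00000064360, chrM:9459-9806) had by far the fewest reads of the mRNAs. Its start is printed with that of Gm28438, an annotated nuclear transcript that copies it, because reads of such near twins are hard to assign. Both are from GRCm38, read 5′ to 3′ on the strand of the gene, and the capital marks the base that differs.

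mt-Nd3, chrM:9459-9806, plus strand, bases 1 to 43: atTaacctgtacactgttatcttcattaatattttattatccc

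Gm28438, chr1:24612775-24613119, minus strand, bases 1 to 43: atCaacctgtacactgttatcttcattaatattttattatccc

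Over the 345 bases compared, there was 1 difference, T3C, counted from the first base of each gene with the mitochondrial base first. Gm28438 itself was not analysed here. For mt-Nd3 the normalized read counts were 72.3, 111 and 101 in Control and 75.6, 64.3 and 105 in Sox9cKO. The groups overlapped over most of their range. The log2 fold change was -0.22 with an interval of -0.85 to 0.41, the widest among the mRNAs (limma, adjusted p 0.727).

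Complex III, the cytochrome bc1 complex, has mt-Cytb (ENSMUSG00000064370, chrM:14145-15288) as its only mitochondrially encoded subunit. Normalized read counts were 15320, 17442 and 15087 in Control and 18048, 13171 and 18831 in Sox9cKO. Again the extremes were both Sox9cKO samples. This amounted to a log2 fold change of 0.050 with an interval of -0.33 to 0.44 (limma, adjusted p 0.915). mt-Co1 (ENSMUSG00000064351, chrM:5328-6872) encodes the catalytic subunit of complex IV, cytochrome c oxidase. It had 36623, 36059 and 32691 normalized reads in Control and 42120, 28544 and 35541 in Sox9cKO. The group means, 35124 ± 2126 and 35402 ± 6789 (SD, n = 3), were nearly equal, while the SD was larger in Sox9cKO. The log2 fold change was -0.0049 with an interval of -0.40 to 0.39, or a ratio between 0.76 and 1.31 (limma, adjusted p 0.992).

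**Figure D2:**
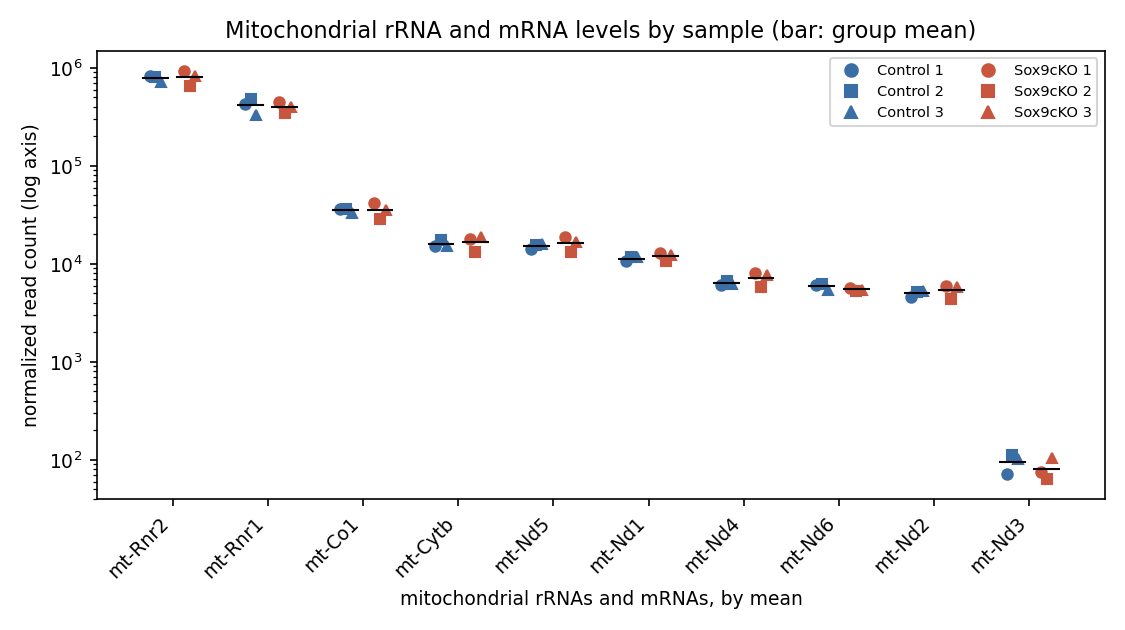
Normalized read counts (log y axis) of the 2 rRNAs and 8 mRNAs in each sample, ordered by mean, with Control in blue, Sox9cKO in red, 1 marker shape per replicate number and a bar at the group mean. The groups overlap for every transcript, and mt-Nd3 lies far below the other mRNAs.

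For most mRNAs the samples of Sox9cKO lay further apart than those of Control. The SD was larger in Sox9cKO for 7 of the 8 mRNAs, all but mt-Nd6. For mt-Co1 the coefficient of variation was 6.05% in Control and 19.2% in Sox9cKO. Sox9cKO replicate 2 was the lowest of the 6 samples for 7 of the 8 mRNAs, the exception being mt-Nd1, where Control replicate 1 was lower. Sox9cKO replicate 1 was the highest for 5 of the 8. As a median over the 7 heavy-strand mRNAs, the log2 deviation from the mean of the 6 samples was -0.15, 0.0080 and 0.0019 in Control and 0.21, -0.25 and 0.17 in Sox9cKO. All 7 lay below their means in Sox9cKO replicate 2 and above them in Sox9cKO replicate 3, while the other 4 samples held deviations of both signs. These deviations describe the libraries, since the mRNAs of 1 sample share its preparation and its size factor.

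**Figure D3:**
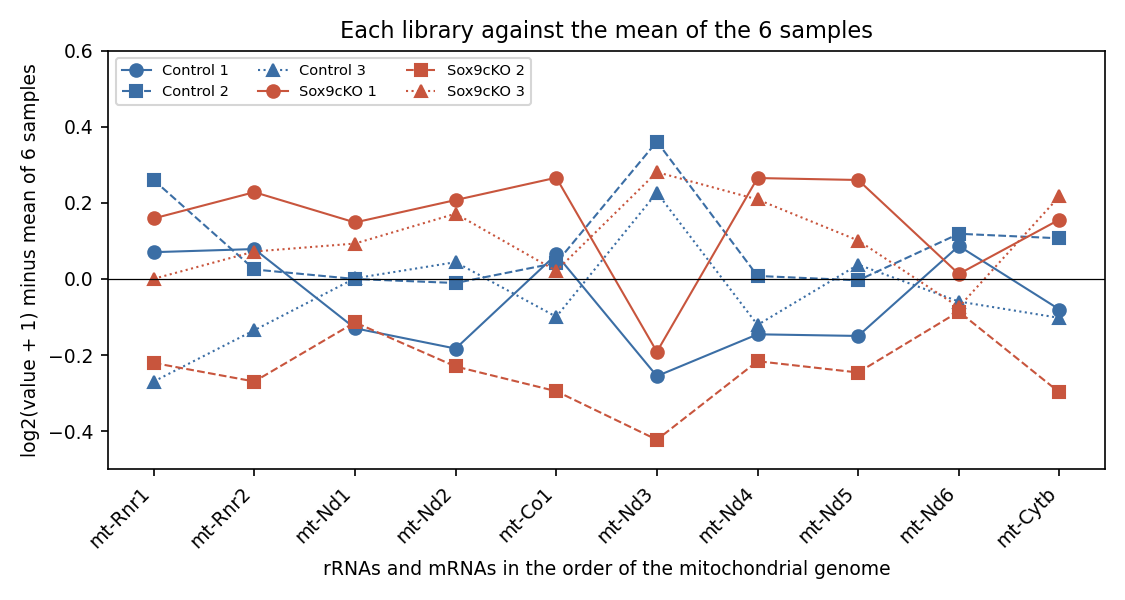
Deviation of each library from the mean of the 6 samples on the log2(value + 1) scale (y axis) for the rRNAs and mRNAs in the order of the mitochondrial genome, with 1 line per library. The line of Sox9cKO replicate 2 lies below 0 throughout, and those of Sox9cKO replicates 1 and 3 lie at or above 0 except at mt-Nd3 (replicate 1) and mt-Nd6 (replicate 3).

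Compared within a replicate number, the direction differed. All 7 heavy-strand mRNAs were higher in Sox9cKO for replicate 1 (median log2 difference 0.28) and for replicate 3 (0.12). For replicate 2, none of the 7 was higher and the median was -0.24. Both rRNAs followed the same signs, with medians of 0.12, -0.39 and 0.24. The summed mRNA level of Sox9cKO was 104% of that of Control over all samples and 113% without Sox9cKO replicate 2. Without it, the median log2 fold change of the 8 mRNAs was 0.19, and still no mitochondrial transcript was called with limma (lowest adjusted p 0.310). With Sox9cKO replicate 1 left out in its place, that median was -0.024, and 3 of the 8 mRNAs were higher in Sox9cKO.

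The sign of such small differences also depends on the scaling, which shifts all genes together. With each sample scaled to its reads outside the mitochondrial genes and the cytoplasmic rRNA Rn18s-rs5, the median log2 fold change of the 8 mRNAs moved from 0.064 to -0.032. That of all tested genes moved alike, from 0.036 to -0.060, so the mRNAs stood as far from the median of all genes as before. Through this shift 2 of the 7 heavy-strand mRNAs were higher in Sox9cKO, in place of 5, and with TMM factors 6 were.

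As a share of all reads in genes, the 8 mRNAs took 0.686%, 0.729% and 0.676% in Control and 0.758%, 0.570% and 0.702% in Sox9cKO. The means were 0.697% ± 0.0282 and 0.677% ± 0.0968 (SD, n = 3). The Sox9cKO samples lay on both sides of the Control samples. Without Sox9cKO replicate 2, the mean share in Sox9cKO was 105% of that in Control, in place of 97.1%. As a difference, Sox9cKO minus Control was -0.021 percentage points over all samples. It was 0.033 without Sox9cKO replicate 2 and -0.061 without Sox9cKO replicate 1. No test was made on these shares, because they are sums over the chosen transcripts.

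The rRNAs were the most abundant mitochondrial transcripts, although the libraries had been depleted of rRNA, per the labels. Their values therefore describe what the depletion left, and whether it acted alike in all samples was not tested. mt-Rnr2 (ENSMUSG00000064339, chrM:1094-2675), the rRNA of the large mitochondrial ribosomal subunit, was the highest of all rows in each of the 6 samples. Its normalized read counts were 832896, 802462 and 718411 in Control and 923870, 654290 and 829186 in Sox9cKO. The Control values lay inside the range of the Sox9cKO values. On the log2 scale the groups differed by 0.021 with an interval of -0.51 to 0.55 (limma, adjusted p 0.975).

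mt-Rnr1 (ENSMUSG00000064337, chrM:70-1024), the rRNA of the small subunit, had 422142, 481439 and 333493 normalized reads in Control and 448911, 344988 and 402148 in Sox9cKO. Here both extremes were Control samples. The log2 fold change was -0.041 with an interval of -0.55 to 0.47 (limma, adjusted p 0.952).

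Together the rRNAs took 9.22%, 9.47% and 7.68% of reads in Control and 9.32%, 7.005% and 8.42% in Sox9cKO. The means were 8.79% ± 0.966 and 8.25% ± 1.17 (SD, n = 3), and the groups overlapped. Without Sox9cKO replicate 2 the order turned, with a Sox9cKO mean of 8.87%, or 101% of the Control mean in place of 93.8%. Without Sox9cKO replicate 1 the difference grew, from -0.54 to -1.08 percentage points (Sox9cKO minus Control). The cytoplasmic rRNA Rn18s-rs5 took 2.41%, 2.93% and 2.48% in Control and 2.39%, 3.50% and 3.21% in Sox9cKO. Its highest share was in Sox9cKO replicate 2, the sample with the lowest share of mitochondrial rRNA. Whether the 2 are related was not tested.

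Ratios within the mitochondrial transcripts do not depend on the size factor. There were 13.4, 13.0 and 11.4 rRNA reads per mRNA read in Control and 12.3, 12.3 and 12.0 in Sox9cKO, so the Sox9cKO samples lay inside the Control range. The ratio of mt-Rnr2 to mt-Rnr1 reads was 1.97, 1.67 and 2.15 in Control and 2.06, 1.90 and 2.06 in Sox9cKO. It too overlapped between the groups. Of the 8 mRNAs, only mt-Nd4 took a share of the mitochondrial mRNA reads that did not overlap, with 6.51%, 6.84% and 6.69% in Control and 7.24%, 7.13% and 7.58% in Sox9cKO. That share was picked out after its values were seen and was not tested. On the scale of normalized read counts, the groups did not overlap for 24.2% of all tested genes. No such background was made for shares. mt-Co1 took the largest share, 39.2%, 36.5% and 35.3% in Control and 37.7%, 35.1% and 34.6% in Sox9cKO.

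**Figure D4:**
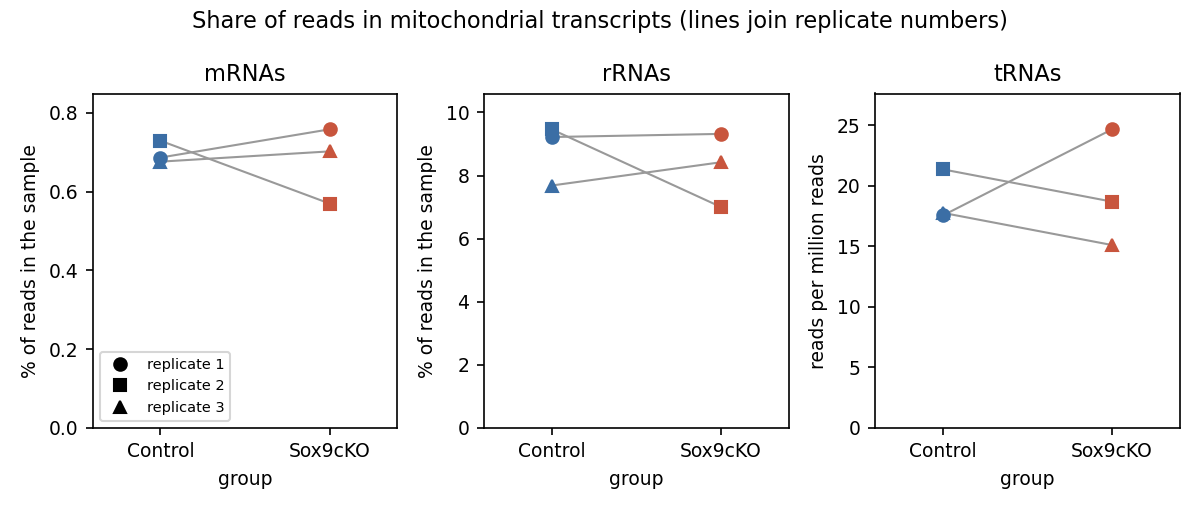
Share of a sample's reads in mitochondrial mRNAs (left, %), rRNAs (middle, %) and tRNAs (right, reads per 1000000 reads) by group, with 1 point per sample and lines joining samples of the same replicate number. The groups overlap in all 3 panels, and the line of replicate 2 falls from Control to Sox9cKO in each.

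Levels of different mRNAs were compared per kilobase of annotated gene, as means over the 6 samples. mt-Co1 stood highest with 22824 ± 2914 normalized reads per kilobase (SD, n = 6), followed by mt-Cytb with 14263 ± 1874. Then came mt-Nd1 with 12201 ± 932 and mt-Nd6 with 10950 ± 669, which changed places between samples. mt-Nd5 followed with 8626 ± 1078. mt-Nd2 with 5015 ± 617 and mt-Nd4 with 4922 ± 690 again changed places, and their levels did not differ beyond their spread. mt-Nd3 was last with 254 ± 57.3. mt-Co1, mt-Cytb, mt-Nd5 and mt-Nd3 held the same rank in all 6 samples. The rRNAs, which are made in excess of the mRNAs in mitochondria generally, stood at 501592 for mt-Rnr2 and 424629 for mt-Rnr1.

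The low level of mt-Nd3 coincided with a property of its sequence. Copies of mitochondrial DNA lie in the nuclear genome. A read that fits a mitochondrial gene and such a copy equally well may be set aside or assigned to either. Which is done depends on the counting program, which is not given in the sources used here. The nearly identical copy of mt-Nd3 printed above, Gm28438, covered 98.0% of the 50-base windows of mt-Nd3. Among the 8 mRNAs analysed, 5 shared windows with annotated nuclear transcripts. Beside mt-Nd3, the shared part was 62.2% for mt-Nd4 (most with Gm28439), 51.1% for mt-Co1 (most with Gm29216), 8.2% for mt-Nd2 and 7.6% for mt-Nd5. With windows of 100 bases 4 of the 8 shared any, and the shared part was 97.6% for mt-Nd3, 60.8% for mt-Nd4, 30.8% for mt-Co1, 3.2% for mt-Nd2 and 0 for mt-Nd5. At 50 bases mt-Nd1, mt-Nd6 and mt-Cytb shared none, and neither did any of the 12 tRNAs. Of the 5 mRNAs not analysed here, mt-Co2 (100%), mt-Co3 (99.9%), mt-Atp6 (99.5%) and mt-Nd4l (98.8%) shared nearly all their windows, while mt-Atp8 shared none. The mean count of each gene was also divided by its windows not shared with a nuclear transcript, per 1000 such windows. All reads of the gene stayed in that count, so the value assumes that no read from shared sequence was kept. Whether this holds was not tested. The value was 13511 for mt-Nd4 and 48239 for mt-Co1, beside 14901 for mt-Cytb, 12859 for mt-Nd1 and 12092 for mt-Nd6. For mt-Nd5 it was 9594 and for mt-Nd2 5733. mt-Nd3 came to 14728, a value that rests on only 6 unshared windows. The order of the mRNAs per length thus depended on whether shared sequence was included in the length. How much of the order comes from the assignment of reads was not tested, since the read length and the counting rule are not given in the sources used here.

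**Figure D5:**
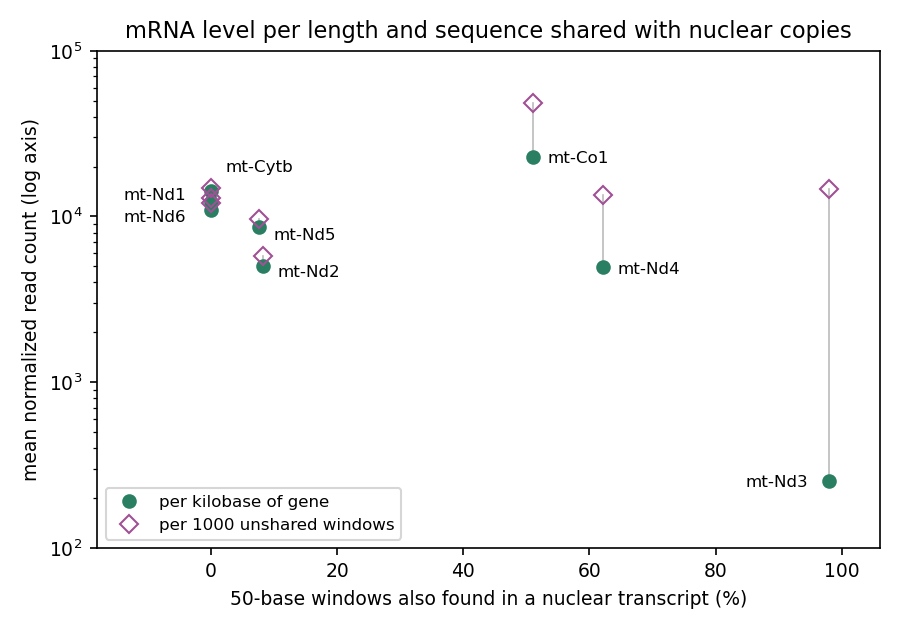
Mean normalized read count (log y axis) of each mRNA against the percent of its 50-base windows also found in an annotated nuclear transcript (x axis), per kilobase of gene (filled circles) and per 1000 unshared windows (open diamonds), joined by a line. mt-Nd3, at 98.0% shared, moves from 254 to 14728, while the mRNAs with no shared window move little.

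Of 8 listed nuclear copies, 4 were in the table and had few reads, while the other 4, Gm28438 among them, were not analysed here. Gm29216 had a mean of 5.28 normalized reads and Gm10221 one of 10.6, against 35263 for mt-Co1. Gm10221 alone was tested and was not called (limma, adjusted p 0.494).

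Reads in tRNAs were rare. The 12 tRNA genes together held 1649 reads over the 6 samples, between 24 and 424 a gene. Scaled to 1000000 reads in genes, they made up 17.5, 21.3 and 17.8 reads in Control and 24.7, 18.7 and 15.1 in Sox9cKO. Mature tRNAs are short and heavily modified, so a library of this kind reads them poorly, and a read in a tRNA gene can also come from an uncut precursor. Which of these a read came from was not tested. The 4 tRNAs that the values below turn on are printed 5′ to 3′ on the strand of the gene (GRCm38), with the anticodon in capitals.

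mt-Tp, chrM:15356-15422, minus strand: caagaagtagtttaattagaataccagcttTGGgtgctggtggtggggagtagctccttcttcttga

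mt-Tl1, chrM:2676-2750, plus strand: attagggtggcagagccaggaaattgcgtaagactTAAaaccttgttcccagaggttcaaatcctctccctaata

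mt-Tm, chrM:3845-3913, plus strand: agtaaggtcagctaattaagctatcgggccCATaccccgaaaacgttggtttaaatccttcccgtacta

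mt-Tv, chrM:1025-1093, plus strand: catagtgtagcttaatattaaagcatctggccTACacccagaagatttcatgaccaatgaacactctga

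mt-Tp, the proline tRNA, is transcribed from the light strand and had the highest mean of the tRNAs, 69.9 normalized reads. Its values were 62.2, 66.8 and 58.8 in Control and 81.6, 70.9 and 79.2 in Sox9cKO. Every Sox9cKO sample was above every Control sample. In the fit the log2 fold change was 0.30 with an interval of -0.15 to 0.75, which did not pass the test (limma, adjusted p 0.482).

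mt-Tm carries methionine, with which mitochondrial proteins begin. It had 10.9, 6.50 and 9.22 normalized reads in Control and 24.9, 15.1 and 11.3 in Sox9cKO. These groups did not overlap either, with the nearest values at 10.9 and 11.3. On the log2 scale the difference was 0.83 with an interval of -0.17 to 1.83, and its limma adjusted p, the lowest among the mitochondrial transcripts, was 0.367, and 0.239 in the fit with the block. It rests on 79 reads over the 6 samples. Among the 17 tested transcripts, mt-Tp and mt-Tm were the only ones whose groups did not overlap, a pattern seen in 24.2% of all tested genes (13.4% higher and 10.8% lower in Sox9cKO). Both were higher in Sox9cKO.

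mt-Tl1, a leucine tRNA that lies directly behind mt-Rnr2, was the steadiest. Its normalized read counts were 55.5, 65.9 and 66.8 in Control and 61.7, 64.3 and 57.7 in Sox9cKO. The spread over the 6 samples, a coefficient of variation of 7.37%, was below the 12.6% that read numbers alone give. Its log2 fold change was -0.031 (limma, adjusted p 0.961).

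mt-Tv, the valine tRNA between the rRNAs, varied most among the tested tRNAs. Its normalized read counts were 20.2, 48.3 and 10.4 in Control and 54.7, 31.2 and 7.92 in Sox9cKO, a 6.91-fold range. Replicate 3 was the lowest in both groups. The coefficient of variation was 67.9%, where read numbers alone give 18.3%. The log2 fold change was 0.14 with an interval of -1.69 to 1.98 (limma, adjusted p 0.952). The summed endothelial markers, at 10185, 31678 and 1448 in Control and 24884, 32371 and 5237 in Sox9cKO, were also lowest in replicate 3 of each group. Their part in mt-Tv was not tested.

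mt-Tq, the glutamine tRNA of the light-strand promoter, had 20.2, 26.9 and 19.6 normalized reads in Control and 63.7, 23.6 and 12.5 in Sox9cKO. Sox9cKO replicate 1 stood far above the other 5 samples. Its group difference came to 0.27 on the log2 scale (limma, adjusted p 0.851). mt-Tw, the tryptophan tRNA, had 27.7, 21.3 and 40.3 in Control and 20.9, 21.7 and 22.6 in Sox9cKO, and its log2 fold change came to -0.39 with limma (adjusted p 0.590). For mt-Ti, the isoleucine tRNA, limma gave a log2 fold change of -0.17 at an adjusted p of 0.856. The 5 tRNAs that were not tested (mt-Ta, mt-Ty, mt-Te, mt-Tt and mt-Tf) had means between 3.94 and 8.52 normalized reads. Among these, mt-Ty had 7.57, 9.28 and 9.22 in Control and 5.97, 7.56 and 5.66 in Sox9cKO, which did not overlap by a narrow margin.

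The precision that read numbers allow differed widely between these transcripts. For mt-Co1 read numbers alone give a coefficient of variation of 0.529%, and the observed value was 12.8%. For mt-Tp they give 11.9%, close to the observed 13.1%. These figures cover counting error only.

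The nuclear genes that build and run mitochondrial gene expression were read out of the same fit. An unadjusted p under 0.05 with limma was reached by 9 of 102 tested genes on 7 lists, against 17.8% of all tested genes. That share also stands beside the counts per list below. Of the 102, 1 was called with limma (0.98%, beside 2.97% of all genes), and it was also the only one called with the replicate block and with edgeR. That gene was Sirt1, a deacetylase that acts on the coactivator PGC-1alpha. Its normalized read counts were 2113, 1724 and 1962 in Control and 1219, 1194 and 1277 in Sox9cKO. All Sox9cKO samples lay below all Control samples. Sirt1 fell by 0.65 on the log2 scale (standard error 0.12; limma adjusted p 0.0328 without and 0.0151 with the block). The call was lost in 5 of the 6 limma fits that omitted a sample, all but the one without Control replicate 2, with adjusted p from 0.0361 to 0.150. It was also lost without the intensity trend (limma, adjusted p 0.0914).

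The other 10 tested regulators of mitochondrial biogenesis were not called with limma, and the median log2 fold change of that list was -0.083. With Sirt1, 3 of the 11 reached an unadjusted p under 0.05, beside 17.8% of all tested genes. Ppargc1a, the gene of PGC-1alpha, had normalized read counts of 401, 272 and 274 in Control and 171, 158 and 214 in Sox9cKO. Its groups did not overlap, at -0.79 on the log2 scale, which did not pass the test (limma adjusted p 0.110 without and 0.0557 with the block). Among them, Myc, a transcription factor of growth, stood at -0.39 on the log2 scale (limma, adjusted p 0.264), and Pprc1, a coactivator related to PGC-1alpha, had 0.026.

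Of the 9 tested genes of mitochondrial transcription, 0 were called with limma, edgeR or the block, and 1 reached an unadjusted p under 0.05 with limma. Tfam, which packs mitochondrial DNA and opens its promoters, had normalized read counts of 258, 287 and 472 in Control and 299, 395 and 386 in Sox9cKO. The groups overlapped, at a log2 fold change of 0.13. Mterf3, which lowers mitochondrial transcription, had 0.25. The median of the list was 0.13.

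Among 22 genes of RNA processing and stability, again 0 were called by these 3 fits and 2 reached an unadjusted p under 0.05, with a list median of 0.14. Lrpprc, whose protein keeps mitochondrial mRNAs stable, had normalized read counts of 776, 810 and 1014 in Control and 1032, 1038 and 1102 in Sox9cKO. Its groups did not overlap, at a log2 fold change of 0.30 that did not pass the test (limma, adjusted p 0.313). Ptcd3, a protein of the small mitochondrial ribosomal subunit, had 0.12.

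The remaining lists had no called gene with limma, the block or edgeR. Of 16 genes that modify mitochondrial rRNA and tRNA, 1 reached an unadjusted p under 0.05, and the median log2 fold change was 0.094. Here Nsun2, a methyltransferase of tRNAs, had 0.14 and Trnt1, which adds the CCA end to tRNAs, had 0.25. Of 15 genes of mitochondrial DNA replication and maintenance, 1 reached an unadjusted p under 0.05, with a median of 0.14. Polg, the catalytic subunit of the mitochondrial DNA polymerase, stood at 0.12, and its accessory subunit gene Polg2 at 0.026. Of 13 translation factors, 1 reached an unadjusted p under 0.05, with a median of 0.073. Gfm1, an elongation factor, stood at 0.17. In that list Tufm, the mitochondrial elongation factor Tu, was 0.35 higher on the log2 scale in Sox9cKO without overlap between the groups, a difference that did not pass the test (limma, adjusted p 0.348). Of the 16 nuclear-encoded core partners of the respiratory chain and ATP synthase, 0 reached an unadjusted p under 0.05, and the median was 0.14. Atp5a1 and Atp5b, the ATP synthase subunits alpha and beta, had log2 fold changes of 0.13 and 0.15. These medians stand beside 0.036 over all tested genes and say nothing particular of the lists.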

How the data were processed

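Stranded total RNA libraries with unique molecular identifiers were made after rRNA depletion, per the labels. The authors deposited a normalized signal per gene and sample, in which every value was a whole read count divided by 1 factor for each sample (100% whole within 0.001 reads). DESeq2 1.36.0 and the build GRCm39 are listed in the submitters' processing notes without a role. The aligner, the annotation, and the use of strand and molecular identifiers are not given in the sources used here. No row had under 10 reads in all.

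Values were tested as log2(value + 1) with limma 3.58.1 in R 4.3.3 (lmFit, eBayes with an intensity trend) over genes with a mean of at least 10, two-sided, with Benjamini-Hochberg adjustment over all genes and a threshold of 0.05. Fold changes are on this scale, which understates changes of low genes. edgeR 4.0.16 and DESeq2 1.42.0 were run on the recovered reads. Same-numbered samples deviated together (r over all tested genes was 0.207 in pair 1, 0.472 in pair 2 and 0.542 in pair 3), so the replicate numbers of the sample titles were used as a block in an alternative fit. The other alternatives were pseudocounts, filters, scalings, sample weights, no trend, and 6 repeats without 1 of the samples. The fits were tested on simulated data with 200 changed genes.

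Named were all mitochondrial mRNAs and rRNAs, the 6 tRNAs with the highest mean, and from each nuclear list the called genes and, where fewer than a pair were called, the highest by mean. mt-Ti, mt-Ty, Ppargc1a, Csf1r, Ptprc, Spp1, Krt7, Krt19 and the nuclear copies were named in addition or after their values were seen. The transcripts and lists were chosen with earlier results of these data known. Gene positions, lengths, sequences and shared windows came from GENCODE M21 transcripts of GRCm38. Only annotated transcripts were compared, and windows of 100 bases and the repeats for Sirt1 were added as alternatives after the data were seen.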

Additional observations from a re-analysis of the deposited data

How the results depend on the processing

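No mitochondrial transcript was called under any of the 13 alternatives or in the 6 fits that left out 1 sample. Small fold changes changed sign. mt-Co1 was 0.0017 with TMM factors, which moved the median of all genes from 0.036 to 0.042. Scaled to reads outside the mitochondrial genes and Rn18s-rs5, mt-Cytb was -0.046, mt-Nd1 -0.011, mt-Nd5 -0.019 and mt-Rnr2 -0.075, a shift shared by all genes, whose median went from 0.036 to -0.060. With sample weights, mt-Cytb was -0.080, mt-Nd5 -0.026, mt-Rnr2 -0.14 and mt-Tl1 0.048. mt-Rnr2 was also -0.012 with edgeR, -0.024 with edgeR and the replicate block, and -0.0067 with DESeq2, and mt-Ti was 0.10 with quantile normalization. The cause of the other changes was not tested. Leaving out 1 sample gave -0.14 to 0.14 for mt-Co1, -0.046 to 0.21 for mt-Cytb, -0.034 to 0.22 for mt-Nd5, -0.19 to 0.079 for mt-Rnr1, -0.088 to 0.16 for mt-Rnr2, -0.28 to 0.033 for mt-Ti, -0.12 to 0.016 for mt-Tl1, -0.34 to 0.80 for mt-Tq and -0.43 to 0.89 for mt-Tv. mt-Nd2, mt-Nd3, mt-Nd4, mt-Nd6, mt-Tm, mt-Tp and mt-Tw kept their sign throughout, but most moved widely when 1 sample was left out: 0.021 to 0.24 for mt-Nd2, -0.42 to -0.066 for mt-Nd3, 0.082 to 0.32 for mt-Nd4, -0.15 to -0.063 for mt-Nd6, 0.54 to 1.07 for mt-Tm, 0.25 to 0.36 for mt-Tp and -0.60 to -0.16 for mt-Tw. mt-Nd1 ranged from 0.032 to 0.16. At a minimum mean of 50, mt-Tv, mt-Tq, mt-Tw, mt-Tm and mt-Ti had no value.

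Over all genes, 510 were called, and 1381 with the replicate block in limma, 1160 with the block in edgeR, 1214 with DESeq2, 1043 with sample weights and 200 to 389 with 1 sample left out. Sirt1, the called nuclear gene, stayed lower in every alternative, with log2 fold changes of -0.74 to -0.58. The block changed no call of a mitochondrial transcript. The share of higher calls was 68.4%, and 57.1% when scaled outside the mitochondrial genes. With windows of 100 bases, the level per 1000 unshared windows was 35263 in place of 48239 for mt-Co1 and 13531 in place of 12092 for mt-Nd6.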
